A study of Mus musculus with 49 samples.

Results

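The leukaemias described here were started by the MLL-AF9 (MA9) fusion and divided by how much of the oncogenic transcription factor Evi1 they carried, whatever cell they began in. The leukaemias were selected on their measured Mecom level from the 19 bulk MA9 leukaemias, out of 49 samples in all. A leukaemia was Evi1-high when Mecom, the gene that encodes Evi1, was at 10 FPKM or more (fragments per kilobase of transcript, scaled to the mapped fragments of the library) and Evi1-low when it was below 3 FPKM. The rule gave 7 Evi1-high and 11 Evi1-low leukaemias and left 1 out. The groups were therefore set by a measured value, and a difference between them is an association in these libraries.

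Each leukaemia was named for the normal cell that received the fusion: short-term haematopoietic stem cells (STHSC:MA9, n = 3), multipotent progenitors (MPP:MA9, n = 6), common myeloid progenitors (CMP:MA9, n = 4) and granulocyte-macrophage progenitors (GMP:MA9, n = 6). Evi1-high and Evi1-low leukaemias shared the same model: sorted cells of wild-type female C57BL/6J mice aged 6 to 12 weeks, transduced with a retrovirus that carried MLL-AF9 and GFP and given directly to sublethally irradiated recipients. GFP-positive leukaemia cells had been sorted from the spleen according to the methods of the study, while the labels give bone marrow as the tissue. Neither group had Evi1 added or removed, and in both the fusion was driven from the retroviral vector and not from the Mll locus. Each sample came from its own recipient, but the labels do not say which recipients shared a batch of transduced donor cells, so that p-values may measure in part a spread within batches.

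Evi1 is a zinc-finger protein of the PRDM family that keeps normal haematopoietic stem cells self-renewing and is switched off as they differentiate. It binds DNA through 2 separate sets of zinc fingers, one of which reads a GATA-like sequence, and recruits repressors such as CtBP. High EVI1 in MLL-rearranged acute myeloid leukaemia is known from patients to go with poor outcome. Gene-level values do not separate the short Evi1 transcript from the longer MDS1-EVI1 transcript of the same gene.

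Mecom (ENSMUSG00000027684, chromosome 3, 29850221 to 30446930 in NCBIM37) was at 11.85, 32.18 and 31.85 FPKM in the 3 STHSC:MA9 leukaemias. It was at 1.25, 61.99, 9.92, 0.30, 43.41 and 53.44 FPKM in MPP:MA9 replicates 1 to 6. CMP:MA9 replicates 1 to 4 had 0.03, 2.65, 0 and 0 FPKM. MPP:MA9 thus held leukaemias at both extremes, whereas every STHSC:MA9 leukaemia was high and every CMP:MA9 leukaemia low. Of the GMP:MA9 leukaemias, replicate 2 was at 25.60 FPKM, and replicates 1, 3, 4, 5 and 6 were at 0, 0, 0, 0.02 and 0.99 FPKM. The Evi1-high group therefore comprised 3 STHSC:MA9, 3 MPP:MA9 and 1 GMP:MA9 leukaemias, and the Evi1-low group 2 MPP:MA9, 4 CMP:MA9 and 5 GMP:MA9 leukaemias. The lowest Evi1-high value was 11.85 FPKM and the highest Evi1-low value 2.65 FPKM, and the leukaemia left out (MPP:MA9 replicate 3, 9.92 FPKM) lay just under the upper limit. Since Mecom chose the groups, it was not tested.

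**Figure D1:**
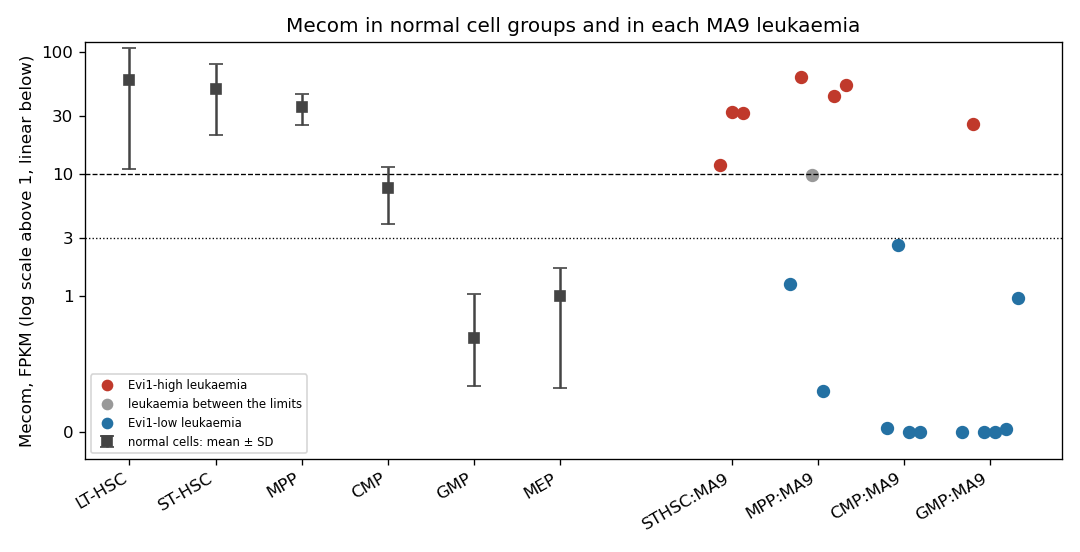
Mecom level in FPKM (log scale above 1, linear below) in 6 normal cell groups (squares, mean ± SD) and in each of the 19 MA9 leukaemias (1 point each, red Evi1-high, blue Evi1-low, grey the leukaemia left out), with the 2 limits as dashed (10 FPKM) and dotted (3 FPKM) lines. The MPP:MA9 leukaemias run from 0.30 to 61.99 FPKM, and GMP:MA9 replicate 2, at 25.60 FPKM, lies far above the mean of 0.692 FPKM in normal GMP.

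In normal cells, which the rule did not use, Mecom was higher in LT-HSC, ST-HSC and MPP than in CMP, GMP and MEP. It was at 59.0 ± 48.0 FPKM (SD, n = 5) in LT-HSC, 14.61 to 91.35 FPKM (SD 29.2, n = 5) in ST-HSC and 35.4 ± 10.3 FPKM (SD, n = 6) in MPP. CMP had 7.66 ± 3.76 FPKM (SD, n = 5), GMP 0.692 ± 0.351 FPKM (SD, n = 5) and MEP 1.01 ± 0.685 FPKM (SD, n = 4). LT-HSC, ST-HSC and MPP overlapped within their spread, as did GMP and MEP, and differences within these sets were not tested. The Evi1-high leukaemias lay within the range from 13.76 to 131.36 FPKM of normal LT-HSC in 6 of 7 cases, the exception being STHSC:MA9 replicate 1. Among the Evi1-low leukaemias that began in MPP, both were below the lowest normal MPP sample (25.62 FPKM), and all 4 CMP:MA9 leukaemias were below the normal CMP mean.

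Around Mecom, 20 other genes lay within 1 Mb. Of these, 7 passed the filter of a mean of 1 FPKM and 0 were called in either comparison described below, with pooled log2 changes from -0.14 to 0.51. Sec62, which encodes a protein translocation factor, was at 16.25 to 30.63 FPKM in Evi1-high and 17.56 to 27.83 FPKM in Evi1-low leukaemias, so that the groups overlapped throughout. Gm16722 and Gm10258, which lie inside the Mecom locus, were below 2 FPKM everywhere; Gm10258 was listed at 0 in all Evi1-low leukaemias and reached 1.48 FPKM in Evi1-high ones. The counting is not stated to use strand, so reads of these genes and of Mecom cannot be told apart where they overlap. Of the PRDM family, 14 other members were found, 7 were tested and 0 were called in either comparison. Prdm16, the closest relative of Mecom, ranged from 0 to 4.58 FPKM in Evi1-high and from 0 to 8.34 FPKM in Evi1-low leukaemias.

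The libraries differed in ways that partly followed origin. Relative depth ran from 0.722 to 1.58 of the median library, mitochondrial genes took 12.7% to 34.5% of the summed FPKM and 16053 to 17112 genes were above 0. The trend of expression with GC content, per 10 percentage points, was between 0.186 and 0.262 on the log2 scale in all 6 MPP:MA9 libraries and between -0.208 and -0.0937 in all STHSC:MA9 and GMP:MA9 libraries, so that a library effect of this kind cannot be told apart from origin. GMP:MA9 replicate 2, the only Evi1-high leukaemia from GMP, stood apart: it had the highest mitochondrial share (34.5%), Bgn at 26.33 FPKM and Cxcl12 at 35.51 FPKM where no other leukaemia passed 1.98 and 4.08 FPKM, and Glrx5 at 1.41 FPKM where the others had at least 17.7 FPKM. Results that rest on it are given without it as well.

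To ask which other genes parted the 2 groups, all genes whose mean reached 1 FPKM were compared on log2(FPKM + 1) by limma. Evi1-high leukaemias carried more Ly6g and Ltf, genes of mature neutrophils, and less Cpa3, a mast cell carboxypeptidase. Cd34 and Gata2, genes of early progenitors, were lower as well, but their calls were lost without any 1 of 11 and 15 of the 18 libraries. Of 12123 genes tested, 49 (0.404%) were called at an adjusted p below 0.05 and a log2 change above 1 in size. Among these, 31 (0.256%) were higher and 18 (0.148%) lower in Evi1-high leukaemias, and 1631 (13.5%) had an unadjusted p below 0.05. The 2 groups did not overlap at all for 18 genes (0.148% of those tested), 14 higher (0.115%) and 4 lower (0.033%), of which 8 and 3 were called. The count of calls rested on single libraries: it was 21 without STHSC:MA9 replicate 3, 22 without MPP:MA9 replicate 2, 26 without CMP:MA9 replicate 4 or GMP:MA9 replicate 3, 27 without CMP:MA9 replicate 1, 30 without CMP:MA9 replicate 2, 31 without GMP:MA9 replicate 5, 76 without CMP:MA9 replicate 3 and 78 without MPP:MA9 replicate 6. Without GMP:MA9 replicate 2 it was 69. Without all STHSC:MA9 leukaemias it was 20 and without all CMP:MA9 leukaemias 8.

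**Figure D2:**
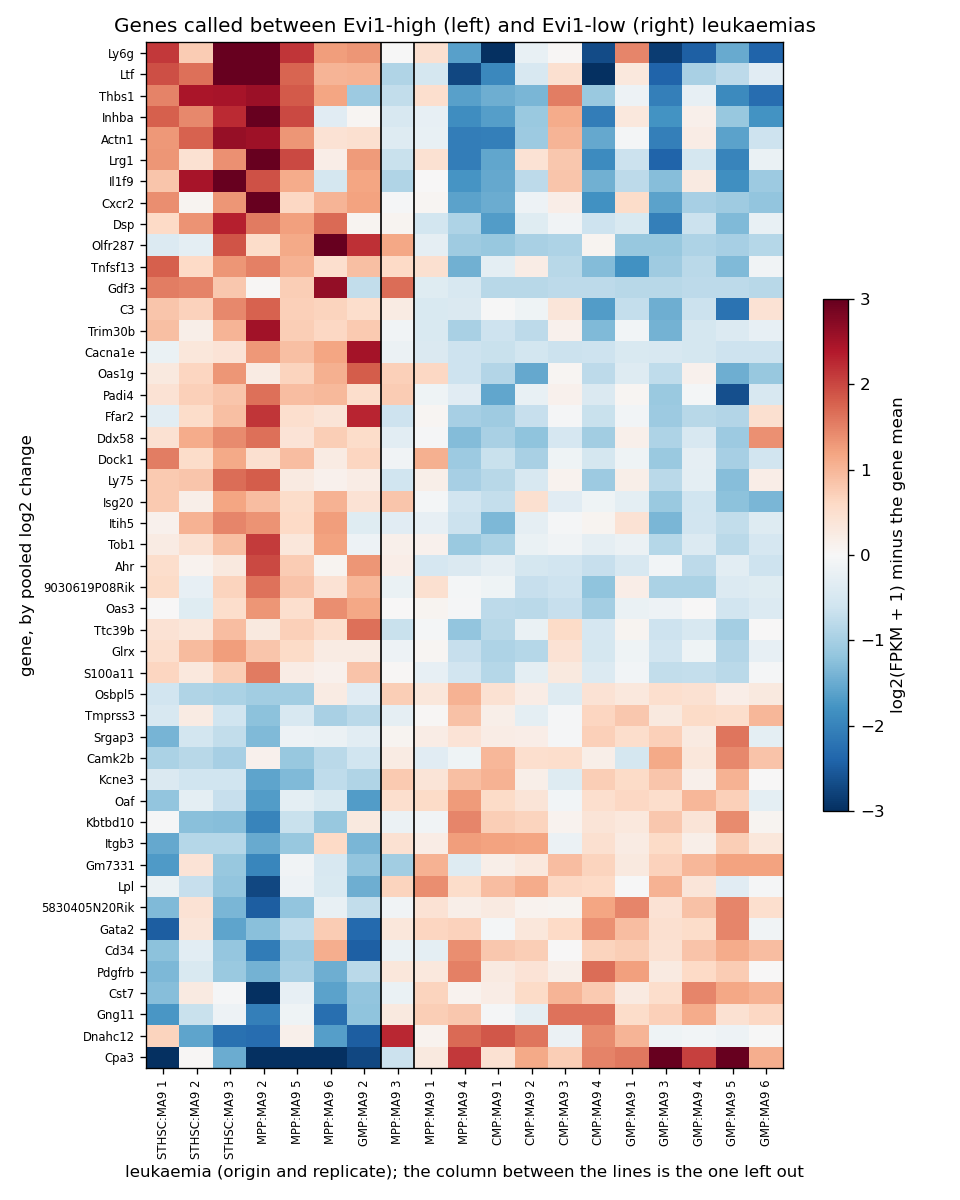
Shown are 48 of the 49 genes called between Evi1-high (left, 7 columns) and Evi1-low (right, 11 columns) leukaemias, as log2(FPKM + 1) minus the mean of the gene over the 19 leukaemias, ordered by pooled log2 change. The column between the lines is MPP:MA9 replicate 3, left out of the comparison. Ly6g and Ltf lie at the top, with the largest rises, and Cpa3 at the bottom, with the largest fall.

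Ly6g (chromosome 15, 74987123 to 74989169), the surface protein that defines mouse neutrophils, showed the largest rise. It was at 46.51, 17.55 and 107.75 FPKM in STHSC:MA9, 211.94, 46.94 and 24.75 FPKM in Evi1-high MPP:MA9 and 26.29 FPKM in GMP:MA9 replicate 2. In Evi1-low leukaemias it ran from 0 through a median of 2.51 to 28.82 FPKM. The ranges overlapped only through GMP:MA9 replicate 1 (28.82 FPKM). The log2 change was 3.56 (SE 0.64, limma adjusted p = 0.015). The call of Ly6g was lost with origin as a random block (3.36, limma adjusted p = 0.0687), without all STHSC:MA9 (3.63, limma adjusted p = 0.0656) and without all CMP:MA9 leukaemias (3.45, limma adjusted p = 0.0656).

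Ltf (chromosome 9, 110921796 to 110945270) encodes lactoferrin of the secondary granules. It was at 64.68, 108.21 and 436.44 FPKM (lowest, median and highest) in Evi1-high leukaemias and at 0.73, 17.84 and 44.49 FPKM in Evi1-low ones, so that the groups did not overlap. The log2 change was 3.31 (SE 0.57, limma adjusted p = 0.0132). The call of Ltf was lost with origin as a random block (3.23, limma adjusted p = 0.0509) and without all STHSC:MA9 leukaemias (3.12, limma adjusted p = 0.0698). Cxcr2, the chemokine receptor that draws neutrophils out of the marrow, was at 11.43, 26.44 and 130.3 FPKM against 2.35, 4.65 and 16.27 FPKM. Its log2 change was 2.13 (SE 0.41, limma adjusted p = 0.0216), and its call was lost without STHSC:MA9 replicate 3 (limma adjusted p = 0.05), with origin as a random block and without all STHSC:MA9 or all CMP:MA9 leukaemias (limma adjusted p up to 0.0869).

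A list of 21 genes of late granulocytes, from the secondary and tertiary granules to the calgranulins, was examined as well. The list includes Ltf, Ly6g and Cxcr2 and was chosen with earlier results of these data known, so that it gives no independent support. All 21 were tested and all 21 had a positive pooled change, with a median of 1.95 against -0.04 over all genes. Only Ltf, Ly6g and Cxcr2 were called, and 16 of 21 had an unadjusted p below 0.05 and a higher level, against 6.55% of all genes. S100a8, a calgranulin, was at 1825.7, 5523.88 and 12783.03 FPKM in Evi1-high and 213.97, 1885.1 and 7382.54 FPKM in Evi1-low leukaemias, with a log2 change of 2.08 that missed the call (limma adjusted p = 0.18). Lcn2, the siderophore-binding lipocalin of secondary granules, was at 676.1, 2311.99 and 11168.61 FPKM against 111.58, 843.5 and 2846.03 FPKM (log2 change 1.95, limma adjusted p = 0.14). Genes of 1 list are not independent of each other, and the members of the stefin A cluster (Stfa1, Stfa2, Stfa3, Stfa2l1 and BC100530) are near copies whose reads could be split between them.

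The granulocyte transcripts varied widely within each group. Their summed level was 12000, 41600 and 87300 FPKM (lowest, median and highest) in Evi1-high leukaemias and 1950, 12900 and 65800 FPKM in Evi1-low ones. The highest Evi1-low library was CMP:MA9 replicate 3, with Mecom at 0, and the lowest Evi1-high library was MPP:MA9 replicate 6, with the second highest Mecom (53.44 FPKM). In bulk samples, more cells of a maturing type and more RNA per cell cannot be told apart. The same transcripts also varied among normal stem cell samples, where Ltf ran from 0.11 to 1349.8 FPKM over the 5 LT-HSC samples and Ly6g from 0 to 374.22 FPKM.

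**Figure D3:**
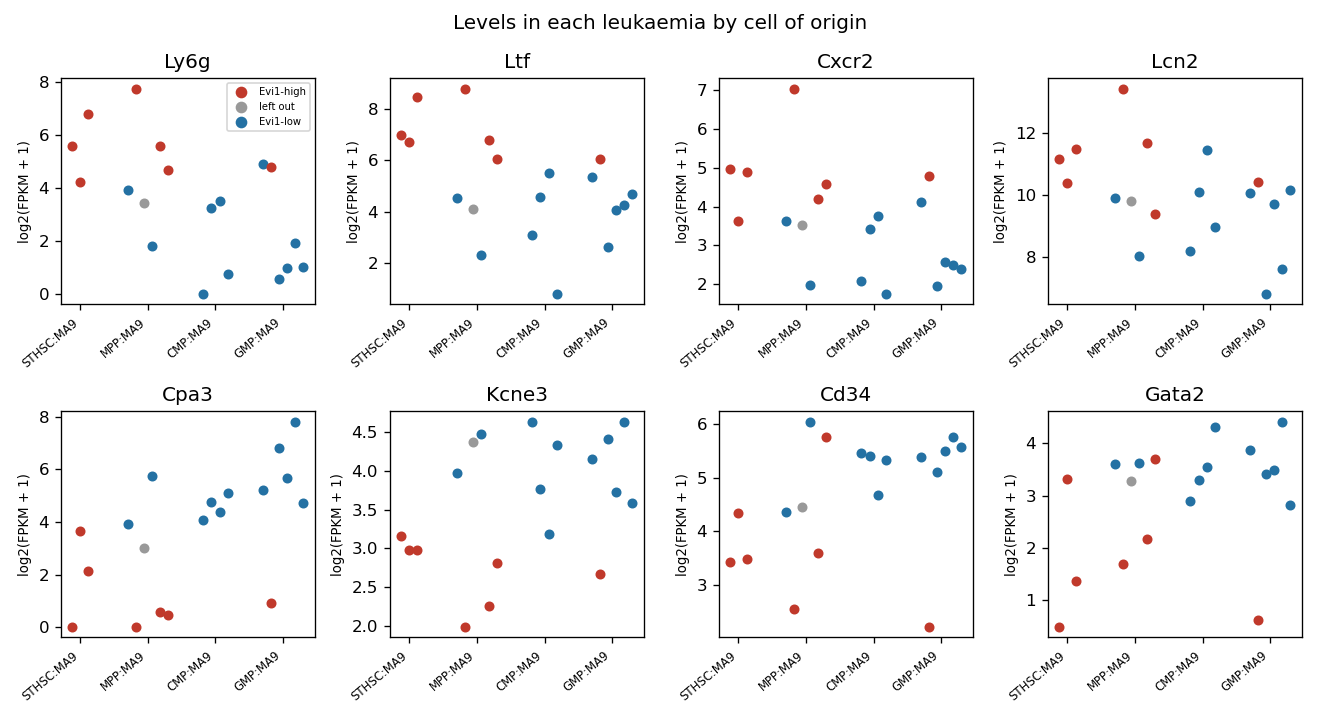
Levels of 4 genes of late granulocytes (Ly6g, Ltf, Cxcr2, Lcn2) and 4 genes lower in Evi1-high leukaemias (Cpa3, Kcne3, Cd34, Gata2) as log2(FPKM + 1) in each leukaemia, by origin (red Evi1-high, blue Evi1-low, grey left out). In MPP:MA9 the 3 Evi1-high leukaemias lie above both Evi1-low ones for Ly6g, Ltf and Cxcr2 and below both for Cpa3 and Kcne3; for Lcn2, Cd34 and Gata2 the MPP:MA9 groups overlap.

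Genes of an earlier step of granulocyte development were counted in the same way. Of 10 genes of the primary granules, made before the secondary ones, 0 were called higher and 1 lower, with a median change of 0.72, and 3 had an unadjusted p below 0.05 and a higher level. Elane, neutrophil elastase, was at 326.14, 786.12 and 1636.58 FPKM in Evi1-high and 33.54, 291.28 and 832.26 FPKM in Evi1-low leukaemias (log2 change 1.73, limma adjusted p = 0.16). The gene called lower was Cst7, the cysteine protease inhibitor cystatin F, at 1.15, 10.2 and 29.82 FPKM against 26.23, 39.79 and 69.05 FPKM (log2 change -1.80, SE 0.38, limma adjusted p = 0.0362). That call was lost when any of 7 single libraries was left out (STHSC:MA9 replicate 1, CMP:MA9 replicates 1, 2 and 4, or GMP:MA9 replicates 3, 4 and 5), with adjusted p up to 0.0628. Of 17 genes of monocytes and macrophages and 12 myeloid transcription factors, 0 were called, with medians of -0.08 and 0.07.

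The other large rises were in genes of several kinds. Il1f9, an interleukin-36 cytokine, had a log2 change of 2.33 (2.7, 11.18 and 52.4 FPKM against 0.49, 1.51 and 8.58 FPKM). Lrg1, a leucine-rich glycoprotein of neutrophil granules, also rose by 2.33 (9.2, 21.26 and 110.13 FPKM against 0.69, 4.71 and 14.53 FPKM). Thbs1, which encodes thrombospondin 1, changed by 2.48 and Inhba, the activin A subunit, by 2.43. Thbs1 was at 12.38 to 33.44 FPKM in 6 Evi1-high leukaemias and at 1.75 FPKM in GMP:MA9 replicate 2, below 4 of the 11 Evi1-low leukaemias. Actn1, an actin-crosslinking alpha-actinin, changed by 2.41 (8.05, 15.75 and 39.93 FPKM against 0.6, 2.16 and 12.75 FPKM). Dsp, the desmosomal plaque protein desmoplakin, parted the groups fully, at 4.49, 12.03 and 25.07 FPKM against 0.25, 2.38 and 3.81 FPKM (log2 change 2.07, SE 0.30, limma adjusted p = 0.00397), and kept its call without any single library. The calls of Thbs1 and Inhba did not: Thbs1 lost its call without any 1 of 13 of the 18 libraries (limma adjusted p up to 0.113) and Inhba without any 1 of 11 (up to 0.0973). Il1f9 lost it without MPP:MA9 replicate 2 or STHSC:MA9 replicate 3, and Lrg1 without any 1 of 10 libraries (up to 0.0997). Actn1 kept its call without any single library. Thbs1, Inhba, Il1f9, Lrg1 and Actn1 lost their calls with origin as a random block and without all STHSC:MA9 or all CMP:MA9 leukaemias. Dsp kept its call in these settings.

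Cpa3 (chromosome 3, 20115516 to 20142080), carboxypeptidase A3 of mast cells, which early progenitors also transcribe, showed the largest fall and the smallest p. It was at 0, 11.65 and 3.44 FPKM in STHSC:MA9, 0, 0.50 and 0.36 FPKM in Evi1-high MPP:MA9 and 0.87 FPKM in GMP:MA9 replicate 2. In Evi1-low leukaemias it was at 14.09, 33.8 and 224.61 FPKM (lowest, median and highest), and the groups did not overlap. The log2 change was -4.19 (SE 0.54, limma adjusted p = 0.00243), and leaving out any single library left it between -4.62 and -3.94 and called. The leukaemia between the Mecom limits had 6.96 FPKM, within the Evi1-high range and below the lowest Evi1-low value. In normal cells Cpa3 was at 5.15 ± 2.86 FPKM (SD, n = 5) in LT-HSC and at 62.1 ± 30.8 FPKM (SD, n = 5) in GMP.

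Cpa3 moved without the other genes of mast cells and basophils. Of 10 on the list, 6 were tested and Cpa3 alone was called, with a list median of 0.05. Mcpt8, a basophil protease, was at 0.5, 4.89 and 9.33 FPKM in Evi1-high and 3.26, 6.22 and 71.43 FPKM in Evi1-low leukaemias (log2 change -0.99, limma adjusted p = 0.39). Hdc, histidine decarboxylase, was at 4.01, 17.56 and 39.56 FPKM against 0.17, 5.09 and 26.01 FPKM (log2 change 1.60, limma adjusted p = 0.19). The defining markers Fcer1a, Ms4a2, Cma1 and Tpsb2 did not pass the filter, and Tpsb2 was listed at 0 in all of these leukaemias.

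Gata2 (chromosome 6, 88143885 to 88157024), a stem cell transcription factor known as a direct target that Evi1 activates, was lower in the Evi1-high group. It was at 0.39, 8.91 and 1.57 FPKM in STHSC:MA9, 2.23, 3.50 and 11.94 FPKM in Evi1-high MPP:MA9 and 0.53 FPKM in GMP:MA9 replicate 2, against 6.09, 10.68 and 20.38 FPKM in Evi1-low leukaemias. STHSC:MA9 replicate 2 and MPP:MA9 replicate 6 lay within the Evi1-low range. The log2 change was -1.67 (SE 0.38, limma adjusted p = 0.0496). The call held only without GMP:MA9 replicate 6, MPP:MA9 replicate 6 or STHSC:MA9 replicate 2 and was lost without any of the other 15 libraries, with adjusted p up to 0.124.

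Cd34, a sialomucin of stem and progenitor cells, fell in the same direction. It was at 3.64, 10.23 and 52.92 FPKM in Evi1-high and 19.63, 41.26 and 64.99 FPKM in Evi1-low leukaemias (log2 change -1.70, SE 0.36, limma adjusted p = 0.0353). MPP:MA9 replicate 6 held the 52.92 FPKM, and the call was lost without any 1 of 11 libraries (adjusted p up to 0.0975).

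Stem cell genes moved in both directions. Of 25 stem cell transcription factors, 20 were tested, 11 had a positive and 9 a negative change, and 1 was called higher and 1 lower (Gata2), against 0.404% of all genes called, with a median of 0.03. Hoxa9, which MLL fusions activate, was at 14.5, 20.4 and 54.0 FPKM in Evi1-high and 12.48, 25.17 and 38.77 FPKM in Evi1-low leukaemias, and Meis1 was at 36.18, 62.16 and 95.48 FPKM against 23.74, 42.79 and 69.6 FPKM (limma adjusted p = 0.28). Of 20 stem cell surface genes, 13 were tested and only Cd34 was called. Of 30 genes linked to EVI1 in earlier work, 23 were tested, 1 was called higher and 2 lower (Gata2 and Cd34), with a median of -0.0035. Of 14 partner proteins of EVI1, such as the corepressors Ctbp1 and Ctbp2, 14 were tested and 0 called.

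The remaining falls were likewise in genes of different kinds. Pdgfrb, the platelet-derived growth factor receptor beta, was at 0.11, 0.42 and 1.25 FPKM against 2.11, 3.12 and 8.82 FPKM, with no overlap (log2 change -1.74, SE 0.24, limma adjusted p = 0.00252). Its Evi1-high mean was 0.494 FPKM, so that Pdgfrb passed the filter only through the Evi1-low leukaemias and had to differ. Gng11, a G protein gamma subunit, changed by -1.89 (0.1, 1.31 and 3.88 FPKM against 3.3, 7.65 and 15.5 FPKM). Lpl, lipoprotein lipase, changed by -1.55 (8.02, 35.93 and 53.2 FPKM against 46.5, 89.48 and 155.31 FPKM). Itgb3, the integrin beta 3 chain, changed by -1.52; it was at 2.58 to 4.71 FPKM in 6 Evi1-high leukaemias and at 14.74 FPKM in MPP:MA9 replicate 6, against 8.21 to 23.89 FPKM in Evi1-low ones. Dnahc12, a dynein heavy chain, changed by -1.99 and Kbtbd10, a kelch protein known from muscle, by -1.43. Pdgfrb, Gng11 and Itgb3 kept their calls without any single library. Lpl lost its call without any 1 of 5 libraries (STHSC:MA9 replicate 3, CMP:MA9 replicates 1, 2 and 4, or GMP:MA9 replicate 3). Kbtbd10 lost its call without MPP:MA9 replicate 2 or STHSC:MA9 replicate 3, and Dnahc12 without any 1 of 14. Itgb3 lost its call without all STHSC:MA9 (limma adjusted p = 0.0698) and without all CMP:MA9 leukaemias (limma adjusted p = 0.0656). Pdgfrb and Gng11 kept theirs in both settings.

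Some called genes fall outside the rule for naming and were picked after their values were seen. Trim30b, Ddx58 (the RNA sensor RIG-I), Isg20 and Oas1g are known to be induced by interferon, and all were higher. Ddx58 was at 5.49, 7.15 and 14.31 FPKM in Evi1-high and 1.0, 1.59 and 11.56 FPKM in Evi1-low leukaemias (log2 change 1.45, limma adjusted p = 0.038). Of the sequence of Oas1g, 56.8% is shared with other genes, so its value is uncertain. A list of 12 interferon genes held none of these: 9 were tested, 0 were called, 5 had an unadjusted p below 0.05 and a higher level, and the median was 0.54. Oas2, another oligoadenylate synthetase, was at 2.82, 4.35 and 15.97 FPKM against 0.7, 1.5 and 4.96 FPKM (log2 change 1.16, limma adjusted p = 0.09).

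Because origin and Evi1 status overlapped, the comparison was repeated with origin in the model. Only MPP:MA9 (3 high against 2 low) and GMP:MA9 (1 high against 5 low) then inform on Evi1 status. Cpa3, Kcne3 and Oaf fell and Cacna1e and Oas3 rose in this comparison as in the pooled one. Of 12123 genes, 7 (0.0577%) were called, 2 (0.0165%) higher and 5 (0.0412%) lower (2 and 3 with median-ratio scaling), and 2272 (18.7%) had an unadjusted p below 0.05. The other 2 called genes were Slc19a1, the reduced folate carrier, and 2810025M15Rik. Without GMP:MA9 replicate 2, 717 of 12111 genes had an unadjusted p below 0.05 within origin, and 0 were called. Both comparisons use the same leukaemias and are given side by side.

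**Figure D4:**
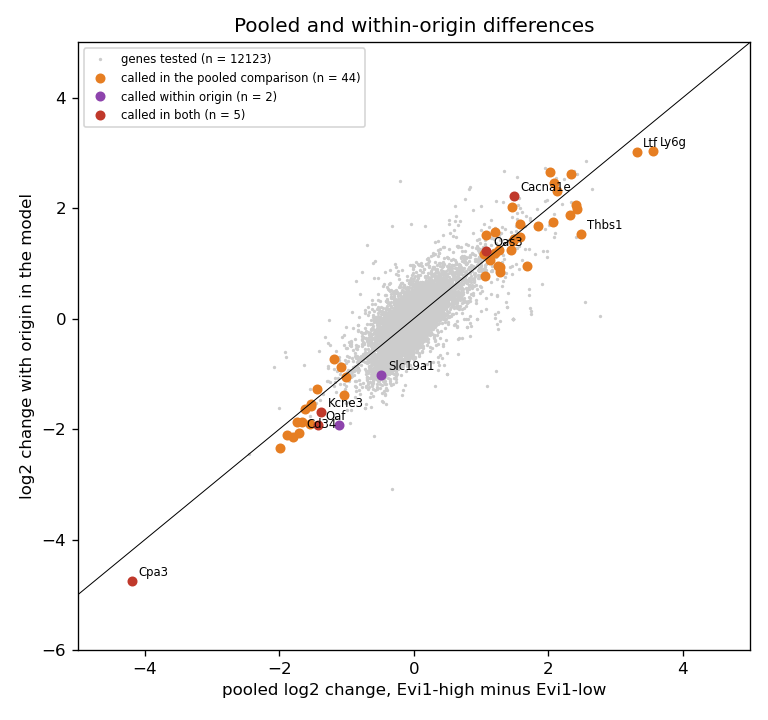
Log2 change of each of 12123 genes between Evi1-high and Evi1-low leukaemias in the pooled comparison (x axis) and with origin in the model (y axis), with the line of equality. The 5 genes called in both are red, 44 called in the pooled comparison alone orange and 2 called within origin alone purple; Cpa3 lies far from all others, at -4.19 and -4.76.

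Cpa3 changed by -4.76 within origin (SE 0.69, limma adjusted p = 0.0175). Within MPP:MA9 it was at 0, 0.50 and 0.36 FPKM against 14.09 and 52.76 FPKM, and within GMP:MA9 it was at 0.87 FPKM against 25.18 to 224.61 FPKM. The call was lost without GMP:MA9 replicate 2, MPP:MA9 replicate 2 or MPP:MA9 replicate 4, with adjusted p up to 0.824 and changes between -5.27 and -4.40. It was also lost with a pseudocount of 0.1, with no filter on low values and with Mecom limits of 5 and 5 FPKM. The same held for the GC and length correction with the replicate number as a block, and for MPP:MA9 alone.

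Cacna1e, a voltage-gated calcium channel subunit, changed by 2.22 within origin (SE 0.26, limma adjusted p = 0.00208) and by 1.49 pooled (SE 0.26, limma adjusted p = 0.0132). It was at 0.43, 1.08 and 1.19 FPKM in STHSC:MA9, 3.02, 2.05 and 2.71 FPKM in Evi1-high MPP:MA9 and 8.22 FPKM in GMP:MA9 replicate 2, and at no more than 0.21 FPKM in any Evi1-low leukaemia. The groups did not overlap. It passed the filter only through the Evi1-high leukaemias, so that it had to differ, and the level was low throughout. It kept both calls without any 1 of the 16 libraries whose removal left it above the filter. Removal of GMP:MA9 replicate 2 or MPP:MA9 replicate 2, its highest libraries, took it below the filter, so that neither call was checked without them. With the MPP:MA9 leukaemias alone its within-origin call was lost. Its pooled call was lost without all CMP:MA9 leukaemias (log2 change 1.45, limma adjusted p = 0.112).

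Kcne3, a potassium channel subunit, was at 2.97, 6.03 and 7.91 FPKM in Evi1-high and 8.1, 16.75 and 23.74 FPKM in Evi1-low leukaemias, with no overlap. It changed by -1.38 pooled (SE 0.21, limma adjusted p = 0.00523) and by -1.69 within origin (SE 0.29, limma adjusted p = 0.0469). The pooled call held without any single library, and the within-origin call was lost without any 1 of 13. Oas3, an interferon-induced synthetase that activates RNase L, was at 4.15, 8.47 and 16.42 FPKM against 2.27, 3.93 and 5.92 FPKM and changed by 1.08 pooled and 1.22 within origin. Its calls were lost without any 1 of 10 libraries pooled and 16 within origin. Oaf, a secreted protein of little known function, was at 0, 1.0 and 1.64 FPKM against 1.61, 3.76 and 6.74 FPKM and changed by -1.42 pooled and -1.92 within origin, the latter call being lost without any 1 of 14 libraries. With an Evi1-high mean of 0.86 FPKM, Oaf passed the filter only through the Evi1-low leukaemias and had to differ. Slc19a1 was at 3.73, 7.83 and 9.83 FPKM in Evi1-high and 7.9, 10.64 and 16.03 FPKM in Evi1-low leukaemias, with a change of -0.48 pooled (limma adjusted p = 0.194) and -1.02 within origin, and the latter call was lost without any 1 of 15.

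The within-origin count depended on single leukaemias even more than the pooled one. It was 0 without GMP:MA9 replicate 2, 0 without MPP:MA9 replicate 2, 15 without MPP:MA9 replicate 1 and 164 without MPP:MA9 replicate 5. It was 2, 3 or 4 without any of the other leukaemias that moved it by more than 1.5 times: 2 without STHSC:MA9 replicate 2, CMP:MA9 replicate 4 or GMP:MA9 replicates 1, 3 and 4, 3 without STHSC:MA9 replicate 1, CMP:MA9 replicate 2 or GMP:MA9 replicate 5, and 4 without STHSC:MA9 replicate 3, CMP:MA9 replicates 1 and 3 or MPP:MA9 replicate 4. With the MPP:MA9 leukaemias alone 0 of 12055 genes were called, and 470 of the 12055 had an unadjusted p below 0.05. With the GMP:MA9 leukaemias alone 466 were called, but these compare 1 library with 5, and the lone library is assumed to vary like the others.

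By the rule for naming, the genes with the smallest p that were not called within origin were Chi3l1, Ahr, Olfr287, Pdlim7 and Midn among rises and Dynlt1a, Tmprss3, Matk, Pdgfrb and Sil1 among falls. Ahr, the aryl hydrocarbon receptor, was at 1.14, 1.93 and 6.96 FPKM in Evi1-high and 0.17, 0.42 and 0.9 FPKM in Evi1-low leukaemias, with no overlap; its changes were 1.21 pooled (limma adjusted p = 0.0184) and 1.56 within origin (limma adjusted p = 0.0828). Ahr, Olfr287 and Chi3l1 had Evi1-low means of 0.459, 0.261 and 0.859 FPKM and passed the filter only through the Evi1-high leukaemias, so that they had to differ. Chi3l1, a chitinase-like protein of neutrophil granules, was at 0.95, 3.99 and 29.68 FPKM against 0, 0.46 and 3.43 FPKM. Pdgfrb changed by -1.87 within origin (limma adjusted p = 0.0828).

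The late granulocyte genes were also followed within origin. All 21 had a positive within-origin change, with a median of 1.70 against -0.06 over all genes, and 0 were called. The median was 2.52 over MPP:MA9 alone and 0.58 over GMP:MA9 alone. The pooled median, with no origin term, was 2.07 without GMP:MA9 replicate 2, 1.60 without STHSC:MA9 and 1.93 without CMP:MA9. Within MPP:MA9, Ly6g was at 211.94, 46.94 and 24.75 FPKM against 14.19 and 2.51 FPKM, so that the groups did not overlap. In GMP:MA9 replicate 2 it was at 26.29 FPKM, below the 28.82 FPKM of the Evi1-low replicate 1 and above the 0.5 to 2.81 FPKM of the other 4. The difference between the 2 origins was not called for any of the 21 genes.

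**Figure D5:**
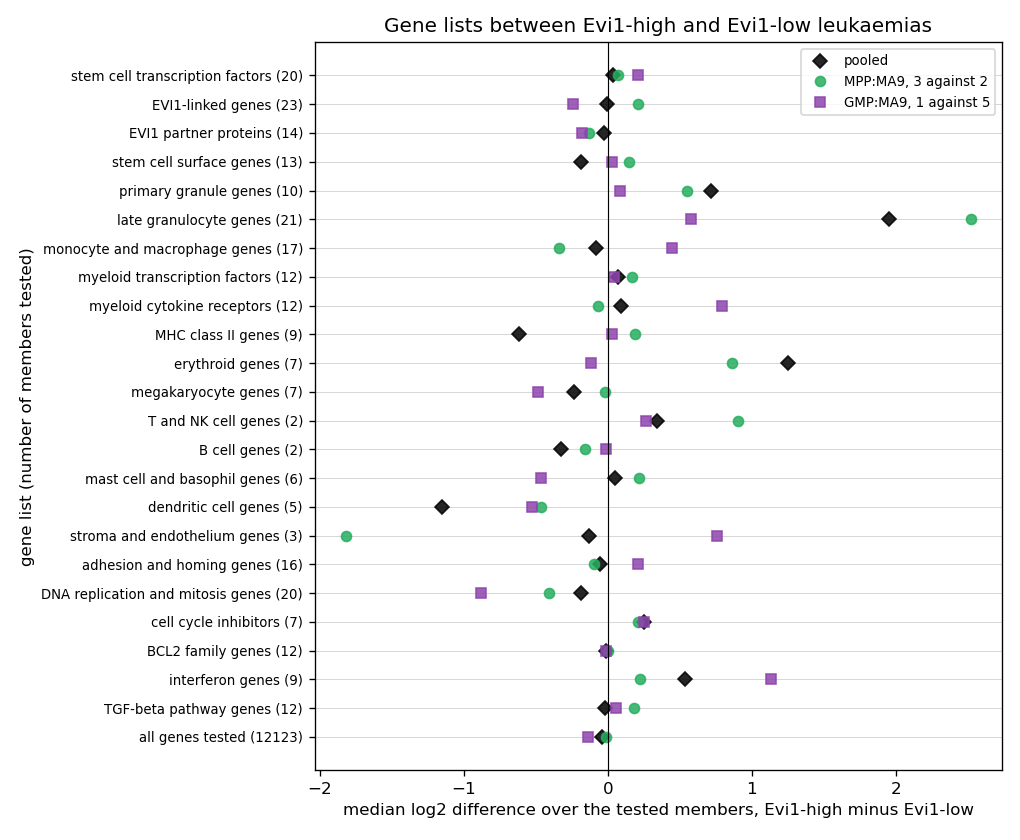
Median log2 difference over the tested members of 23 gene lists and over all 12123 genes tested, between Evi1-high and Evi1-low leukaemias pooled (diamonds), within MPP:MA9 (circles, 3 against 2) and within GMP:MA9 (squares, 1 against 5). The late granulocyte genes lie furthest to the right in the pooled comparison (1.95) and in MPP:MA9 (2.52), and MHC class II genes lie at -0.62 pooled and at 0.19 and 0.03 within the 2 origins.

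Other lists changed their position once origin was held. Genes of MHC class II, which present antigen to T cells, had a pooled median of -0.62 with 9 of 9 below 0, and a within-origin median of 0.06 with 5 of 9 above 0. Their summed level was 127, 148 and 155 FPKM in the 3 STHSC:MA9 leukaemias and 300 to 661 FPKM in the other 4 Evi1-high ones, against 175 to 1180 FPKM in the Evi1-low group. Genes of dendritic cells had a median of -1.15 pooled and -0.48 within origin, over 5 tested. Genes of DNA replication and mitosis had a pooled median of -0.19 with 19 of 20 below 0, and a within-origin median of -0.61 with 20 of 20 below 0. Without GMP:MA9 replicate 2 their pooled median was -0.09, within MPP:MA9 it was -0.41 and within GMP:MA9 -0.88. Mcm7, a subunit of the replicative helicase, was at 16.35, 44.34 and 60.68 FPKM in Evi1-high and 39.0, 55.42 and 65.7 FPKM in Evi1-low leukaemias. No member of these lists was called in either comparison.

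Lists of cell cycle inhibitors, BCL2 family genes, the TGF-beta pathway, which Evi1 is known to restrain through SMAD3, and myeloid cytokine receptors held 0 called genes, with pooled medians of 0.25, -0.01, -0.02 and 0.09. Cdkn1c, the cell cycle inhibitor p57, was at 0.3, 4.11 and 9.49 FPKM against 0.04, 0.52 and 4.36 FPKM (log2 change 1.45, limma adjusted p = 0.11). Of 16 adhesion genes tested, Thbs1 was called higher and Itgb3 lower. Itgb3 was also the 1 of 7 tested megakaryocyte genes that was called.

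Markers of cells that a sorted leukaemia should lack were summed in each library. The 13 genes of T and NK cells summed to at most 7.67 FPKM in 6 Evi1-high leukaemias and to 35.7 FPKM in MPP:MA9 replicate 6, against 1.19 to 4.36 FPKM in the Evi1-low group. The 10 genes of B cells summed to 15.3, 17.9 and 73.6 FPKM (lowest, median and highest) in Evi1-high leukaemias, the highest being MPP:MA9 replicate 6, and to 26.7, 35.2 and 56.5 FPKM in Evi1-low ones. Of these, Ms4a1, Pax5 and Blk were below 0.1 FPKM in every leukaemia compared. The 14 erythroid genes summed to 35.9, 69.3 and 1030 FPKM (lowest, median and highest) in Evi1-high leukaemias and to 30.1, 43.5 and 174 FPKM in Evi1-low ones, the 1030 FPKM being again MPP:MA9 replicate 6. Of them 7 were tested and 0 called, with a median of 1.25. The 10 genes of stroma and endothelium summed to 133 FPKM in GMP:MA9 replicate 2 and to 17.8 to 72.8 FPKM in the other leukaemias compared. Of them 3 were tested, with a pooled median of -0.13, and 1 was called lower, against 0.148% of all genes. Their part in the differences above was not tested.

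The leukaemia left out, MPP:MA9 replicate 3, was not used to choose the called genes. With Mecom at 9.92 FPKM, close to STHSC:MA9 replicate 1 at 11.85 FPKM, it lay on the Evi1-high side of the midpoint between the group means for 16 of the 49 called genes and on the Evi1-low side for 33. Ly6g was at 9.77 FPKM, Ltf at 16.3 FPKM and Kcne3 at 19.59 FPKM, all within the Evi1-low and outside the Evi1-high range. Gata2, at 8.77 FPKM, lay within both ranges. Cpa3 went the other way and lay within the Evi1-high range, below the lowest Evi1-low value. STHSC:MA9 replicate 1 lay on the Evi1-high side for 41 of 49, but helped to choose those genes.

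To see where the called genes stand in normal haematopoiesis, normal LT-HSC and ST-HSC were set against normal GMP, samples the rule did not use. Of 12367 genes, 1970 (15.9%) were called, 1219 (9.86%) higher and 751 (6.07%) lower in stem cells. Of the 11129 that were also tested in the leukaemias, 660 were called higher and 736 lower, with a median log2 change of -0.05. Of the 31 genes higher in Evi1-high leukaemias, 28 were tested, 11 (39.3%) were called higher in stem cells and 2 (7.14%) lower, with a median log2 change of 0.76 against 0.01 over all genes. Of the 18 lower genes, 16 were tested, 5 (31.2%) were called higher in stem cells and 3 (18.8%) lower, with a median of -0.21. Gata2, at 52.0 ± 17.2 FPKM (SD, n = 5) in LT-HSC and 10.9 ± 4.64 FPKM (SD, n = 5) in GMP, was higher in stem cells (log2 change 2.34) and lower in Evi1-high leukaemias.

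The promoters of the called genes were searched for 2 sequences known from Evi1 binding: AGATAA, the core of sites for its first zinc-finger domain, which GATA factors share, and GAAGATGAG, the site of its second. The 250 bases before the start of each gene in RefSeq (GRCm38.p6, so that these positions are not on the NCBIM37 scale used above) were read on both strands. AGATAA was found in 9.99% of 32851 promoters. It was in 5 of 33 promoters (15.2%) of the 26 matched among 31 higher genes, and in 1 of 17 (5.88%) of the 11 matched among 20 lower genes, over both comparisons. GAAGATGAG was in 0.347% of all promoters and in none of these. A match is a description of the letters and not a site of binding. The promoters of Cpa3 (chr3:20242182-20242431, minus strand), Oas3 (chr5:120777660-120777909, minus strand) and Ltf (chr9:111019042-111019291, plus strand) are shown because each holds 1 match, in capitals, and were thus picked for the match. The promoters of Cacna1e, Kcne3 and Oaf, which like Cpa3 and Oas3 were called in both comparisons, held 0 matches.
Cpa3: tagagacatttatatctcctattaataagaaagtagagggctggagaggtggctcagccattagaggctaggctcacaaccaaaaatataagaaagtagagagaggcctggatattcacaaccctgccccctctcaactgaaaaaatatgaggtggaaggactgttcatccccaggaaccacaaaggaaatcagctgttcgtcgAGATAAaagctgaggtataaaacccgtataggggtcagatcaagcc
Oas3: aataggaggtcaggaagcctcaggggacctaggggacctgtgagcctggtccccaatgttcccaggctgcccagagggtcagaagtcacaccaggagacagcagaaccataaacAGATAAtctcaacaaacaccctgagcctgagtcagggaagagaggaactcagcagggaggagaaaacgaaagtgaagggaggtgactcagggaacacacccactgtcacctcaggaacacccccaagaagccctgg
Ltf: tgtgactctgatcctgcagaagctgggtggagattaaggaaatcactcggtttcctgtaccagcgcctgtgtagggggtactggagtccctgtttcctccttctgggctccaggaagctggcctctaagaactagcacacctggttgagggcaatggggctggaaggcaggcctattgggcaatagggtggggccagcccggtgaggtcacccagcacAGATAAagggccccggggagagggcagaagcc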

How the data were processed

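RNA sequencing of 19 MA9 leukaemias and 30 normal samples was used. The authors amplified cDNA, estimated transcript abundance with RSEM and deposited FPKM values; the submitters' processing notes name the genome build mm9, and the version of RSEM and the aligner are not given in the sources used here. The table had 68 columns, of which 19 could be matched to no sample by label and were left unused. Symbols and positions come from GENCODE M1 (NCBIM37).

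Groups followed measured Mecom (at least 10 and below 3 FPKM). Genes whose mean reached 1 FPKM were compared on log2(FPKM + 1), which understates changes of low genes, with limma 3.58.1 in R 4.3.3 (eBayes with trend, two-sided, Benjamini-Hochberg over all genes tested), pooled and with origin as a fixed term; Mecom was left out. Calls needed both an adjusted p under 0.05 and an absolute log2 change over 1. The authors' edgeR test used counts, which were not used here. Genes were named by rule: the 10 largest rises and falls among called protein-coding genes with a symbol that is not a Gm or Rik identifier, the 5 smallest p where fewer than 5 were called, genes called in both comparisons, list members, and neighbours of Mecom. Of 23 lists, Spi1 and Ifi27 were matched by an older symbol, and Cdkn2d and Bcl2a1d were not analysed here; 1 called gene and 1 marker gene that the rule would name are not reported here. Members, limits and lists were chosen with earlier results of these data known, and support nothing independently. The fit was checked on simulated data in which low means were raised and large spreads capped. That check therefore does not cover genes at low level or with large spread.

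FPKM do not hold read totals, so the depth is unknown and no interval or floor was computed. Relative depth was estimated as the commonest ratio between libraries over genes at 0.1 to 1.5 FPKM, where single reads set the steps. Sequence shared with other genes was the percent of 31-base windows. Alternatives were a pseudocount of 0.1, no filter, median-ratio scaling, no fold threshold, the replicate number as a block, a GC and length correction (splines of 4 degrees of freedom) with and without the block, other Mecom limits (5, or 20 and 1), Mecom as a continuous level, origin as a random block, single origins, and leaving out each library. A test of whether the Evi1 difference differed between MPP:MA9 and GMP:MA9 used the same model.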

Additional observations from a re-analysis of the deposited data

Results flagged for a closer look

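Single values far from the rest of their group were looked for among the called genes named above in the 7 Evi1-high leukaemias and among the library measures, where chance alone gives such a value in about 1 of 20 groups. Thbs1 was at 1.75 FPKM in GMP:MA9 replicate 2, below the other 6 Evi1-high leukaemias. Cxcr2 was at 130.3 FPKM in MPP:MA9 replicate 2, above the other 6. Itgb3 was at 14.74 FPKM in MPP:MA9 replicate 6, above the other 6. The mitochondrial share was 34.5% in GMP:MA9 replicate 2 against at most 19.8% in the other Evi1-high leukaemias. Relative depth was 1.58 in GMP:MA9 replicate 5 and at most 1.0 in the other GMP:MA9 libraries.

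The difference between Evi1-high and Evi1-low leukaemias within MPP:MA9 differed from that within GMP:MA9 for 14 of 12177 genes (0.115%). Of these, 4 were protein-coding or immunoglobulin genes with a name and little shared sequence. The difference in log2 change, MPP:MA9 minus GMP:MA9, was -6.14 for Cxcl12 (limma adjusted p = 0.0072), -5.39 for Bgn (limma adjusted p = 0.00271), -4.11 for Igkc (limma adjusted p = 0.0183) and 3.02 for Glrx5 (limma adjusted p = 0.0153). In GMP:MA9 the Evi1-high arm was replicate 2 alone, in which Cxcl12 was at 35.51, Bgn at 26.33, Igkc at 32.27 and Glrx5 at 1.41 FPKM. Igkc was higher still in the Evi1-low CMP:MA9 replicate 4 (61.55 FPKM).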

How the results depend on the processing

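The pooled count of 49 called genes was 46 with a pseudocount of 0.1, 71 with median-ratio scaling and 66 with no fold threshold. It was 20 with no filter on low values, 77 with the GC and length correction, 28 with Mecom limits of 5 and 5 FPKM, 31 with limits of 20 and 1 FPKM, 153 against Mecom as a continuous level and 15 with origin as a random block. It was 20 without all STHSC:MA9 and 8 without all CMP:MA9 leukaemias, and 21 to 78 without single libraries. Within origin, the count of 7 was 1 with a pseudocount of 0.1, 2 with no filter, 0 with limits of 5 and 5 FPKM (unadjusted p below 0.05 for 2226 genes), 3 with limits of 20 and 1 FPKM, 1 against continuous Mecom, 0 to 164 without single libraries, 0 in MPP:MA9 alone and 466 in GMP:MA9 alone. The count of 1970 in normal cells was 6242 with no fold threshold and 1880 to 2050 without single libraries.

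Groups share replicate numbers. Over 23 pairs of same-numbered leukaemias of different origin the mean correlation of deviations was -0.0596, with 5 over 0.1. It was 0.0129 over 109 other pairs. These means showed no pairing by number, but they cannot exclude that some numbers mark a shared experiment, since same-numbered pairs ran from -0.374 to 0.311. With the replicate block the pooled count was 1 (Cpa3) and the within-origin count 1; with the GC and length correction and the replicate block they were 1 and 0 (unadjusted p below 0.05 for 1174 and 1171 genes). The cause was not tested.

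Over 2070 values of named genes under these alternatives, 642 kept a call and 371 lost one in the same direction; where there was no call, 1011 stayed uncalled in the same direction, 43 gained a call and 3 reversed. The 3 were the log2 change of Sil1 pooled over origins (-0.11, not called), which was 0.0401 with the replicate block, 0.0468 with the GC and length correction and block, and -0.18 to 0.11 without single libraries, above 0 without GMP:MA9 replicate 2 alone. The reads behind low values, such as Cacna1e in Evi1-low leukaemias, are unknown.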
